A study of Homo sapiens with 4 samples.

Results

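The replication-dependent histone genes were examined, taken as every gene on the array whose name begins with HIST1H, HIST2H, HIST3H or HIST4H. The array design gives 69 such names on 85 probes, out of 43311 gene names and 58185 probes. A gene was kept when the probe that stands for it carried the flag that the scanning software sets for a signal well above background on at least 1 array, and 60 genes were kept. They are 5 H1, 15 H2A, 15 H2B, 13 H3 and 12 H4 genes. Of these 60, 58 were above background on all 4 arrays, and HIST1H1A and HIST1H2AA only in MDS-L cells given AZA. The 9 genes not kept were HIST1H1T, HIST1H2APS1, HIST1H2BA, HIST1H4G, HIST2H2BA, HIST2H2BF, HIST3H2A, HIST3H2BB and HIST4H4.

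The data come from 4 one-colour arrays on 1 slide, 1 array for each condition. MDS-L is a cell line from a patient with myelodysplastic syndrome, and MDS-L/CDA is its AZA-resistant derivative, transduced with CDA, whose product deaminates cytidine analogues. MDS-L vehicle and MDS-L/CDA vehicle cells received 0.1% DMSO for 72 h, and MDS-L AZA and MDS-L/CDA AZA cells received 1 μM 5-azacytidine (AZA) for 72 h. Both lines were kept in medium with IL-3. Some label fields give the dose as 1 mM, and a treatment field names the opposite treatment on the MDS-L AZA and MDS-L/CDA vehicle arrays, whereas titles, descriptions and source names give the groups used here. With 1 array per condition no test and no replicate error can be given, so every difference below compares single arrays. Signals are multiples of the 75th percentile of their array. Where 4 signals follow each other, the array order is MDS-L vehicle, MDS-L AZA, MDS-L/CDA vehicle, MDS-L/CDA AZA. The MDS-L/CDA cells are also called the resistant line. A gene is called higher or lower when the ratio of 2 arrays passes 2-fold. Each histone probe has 1 spot per array. The SD between spots of the same probe, where a probe has several, corresponds to 0.28 on a log2 AZA ratio in MDS-L cells, and to 0.37 in the resistant line.

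Histones H2A, H2B, H3 and H4 form the nucleosome core, and H1 binds the linker DNA between nucleosomes. Their replication-dependent genes lie in clusters and are transcribed mainly in S phase, when new DNA is packed. Most of their mRNAs are short, have no introns and end in a conserved stem-loop, bound by SLBP, in place of a poly(A) tail, although some of these genes can also give longer, polyadenylated transcripts from sites further downstream. AZA is a cytidine analogue that enters RNA and DNA and traps the maintenance methyltransferase DNMT1. On the array design, 56 of the 69 names have their probe on chromosome 6, 11 on chromosome 1 and 1 on chromosome 12, and 1 has no position.

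The stem-loop itself is part of 6 of the 60-base probes. The windows below are read from the probes 5′ to 3′, with the 2 arms and the loop in capitals, because they show the shared 3′ end of these mRNAs.
HIST1H2AI: gaaccaaaGGCTCTTTTCAGAGCCaccta
HIST1H2BE: aacccaaaGGCTCTTTTCAGAGCCactca
HIST1H2BF: atcccaaaGGCTCTTTTAAGAGCCa
HIST1H3H: tacccaaaGGCTCTTTTCAGAGCCaccca
HIST1H4K: caacaaaaGGCCCTTTTTAGGGCCcc
HIST2H3A: atccaaaaGGCTCTTTTCAGAGCCacc

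Genes of H2A, H2B, H3 and H4 all carry a 16-base element of this form. In MDS-L cells all 6 of these probes were lower with AZA than with vehicle, with log2 ratios from -2.07 to -0.64, and 4 were past 2-fold, where 6.15% of all probes measured were. In the resistant line none of the 6 was past 2-fold, with log2 ratios from -0.74 to 0.53, where 2.48% of all probes measured were higher and 3.2% lower.

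In MDS-L cells, AZA was accompanied by lower signal of most histone cluster genes. Of the 60 genes, 33 were at least 2-fold lower with AZA than with vehicle and 4 were at least 2-fold higher, whereas 6.03% of the 17172 genes measured were lower and 6.73% higher. The median log2 ratio was -1.08 for the histone cluster genes (a ratio of 0.472) and -0.13 for all genes measured. In all, 52 of the 60 lay below 1, as did 10114 of the 17172 genes measured. Of the 4 higher, HIST1H1A and HIST1H2AA were kept through the MDS-L AZA array alone, and HIST1H2BK is read by a probe chosen through its signal with AZA, so this count was set in part by the array on which they were high. With only genes above background on both arrays 2 were higher. Fewer cells in S phase and less histone RNA per cell cannot be told apart in these bulk samples. How the RNA was primed for labelling, which bears on transcripts without a poly(A) tail, is not given in the sources used here.

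**Figure D1:**
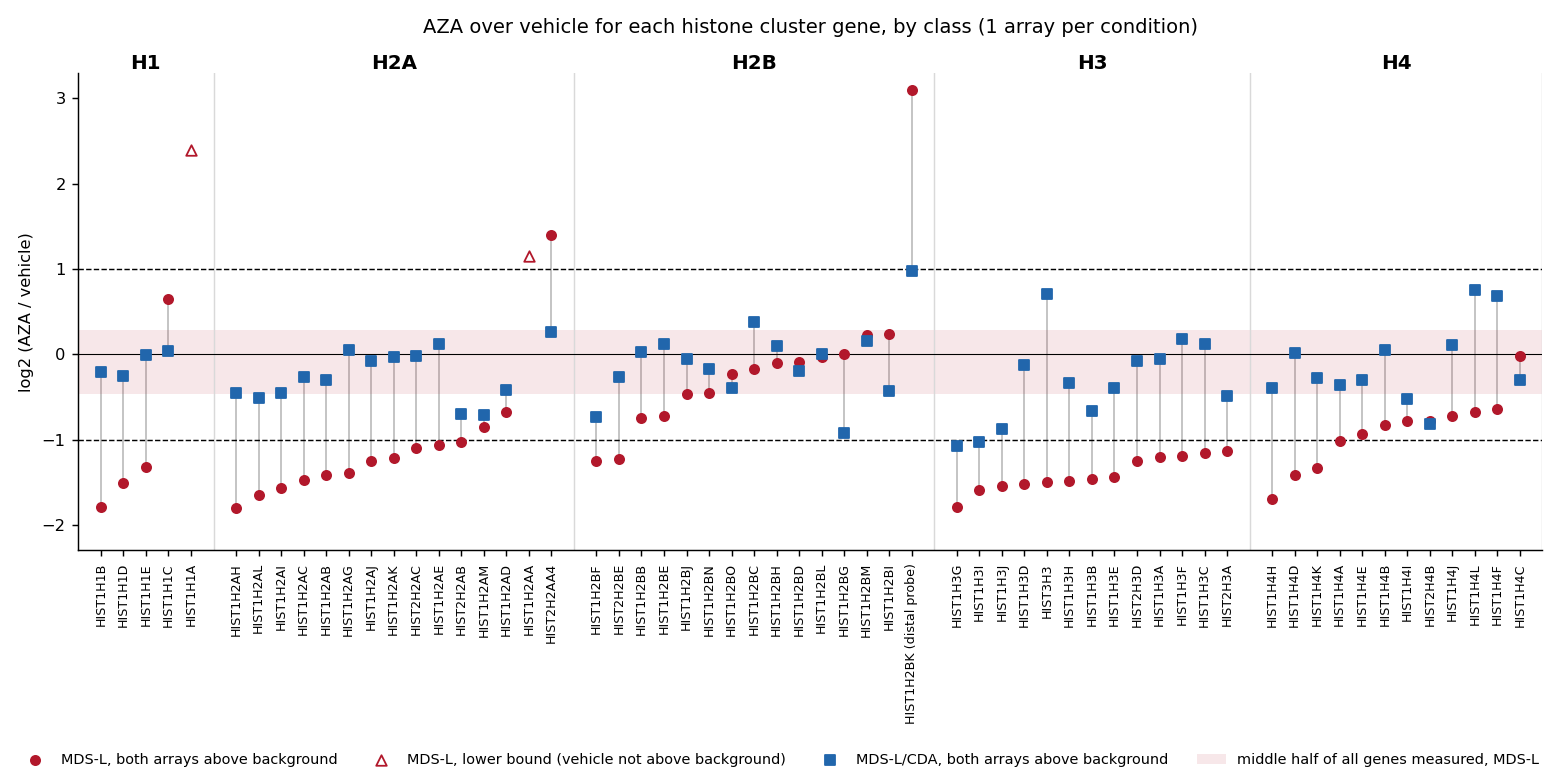
Log2 ratio of AZA over vehicle (y axis) for each of the 60 histone cluster genes (x axis), grouped by class, in MDS-L cells (red) and MDS-L/CDA cells (blue). Dashed lines mark 2-fold and the shaded band holds the middle 50% of all genes measured in MDS-L cells. All 13 H3 genes lie below the lower dashed line in MDS-L cells, whereas most H2B genes lie within the dashed lines.

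The H3 genes, which encode the core histone that carries many of the methylation and acetylation marks, were lower in MDS-L AZA without exception. All 13 passed 2-fold, where 6.03% of all genes measured were lower. Their median log2 ratio was -1.46, with a range from -1.79 to -1.13. HIST1H3G, with the lowest ratio of the class, had signals of 108 with vehicle and 31.2 with AZA in MDS-L cells, against 135 and 64.1 in the resistant line. It was 3.47-fold lower with AZA in MDS-L cells, and 2.11-fold lower in the resistant line. HIST1H3I had signals of 16.5, 5.48, 18.2 and 8.92 on the same arrays, 3.01-fold and 2.04-fold lower with AZA. These 2 genes were the only members past 2-fold lower in both lines.

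Others of the class were lower in MDS-L cells alone by the 2-fold rule. The signals of HIST1H3D were 221 with vehicle and 77.2 with AZA in MDS-L cells, against 261 and 240.0 in the resistant line. HIST1H3B stood at 163, 59.1, 193 and 122 on these arrays, and HIST1H3J at 17.5, 6.02, 22.1 and 12.02. For each of these 3 genes the MDS-L AZA array was the lowest of the 4. HIST1H3E, HIST1H3H, HIST1H3A, HIST1H3C and HIST1H3F were between 2.23-fold and 2.79-fold lower in MDS-L AZA, and in the resistant line their log2 ratios ran from -0.39 to 0.18. HIST2H3A and HIST2H3D on chromosome 1 were 2.19-fold and 2.39-fold lower, but each has a probe that the array design lists for more than 1 gene.

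HIST3H3, an H3 gene best known from testis, had signals of 135 with vehicle and 48.0 with AZA in MDS-L cells, against 66.7 and 108 in the resistant line. Its ratio was 2.82-fold lower with AZA in MDS-L cells, whereas it was 1.63-fold higher in the resistant line, a difference of -2.20 in log2 units between the lines. Over 40 bases its probe is 85.0% identical to that of HIST2H3D, and whether it also reads other H3 mRNAs was not tested.

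The H4 genes, which encode the partner of H3, were all below 1 in MDS-L cells, with a median log2 ratio of -0.81. Only 4 of 12 passed 2-fold lower, where 6.03% of all genes measured did. Those 4 were HIST1H4H at 3.24-fold lower, HIST1H4D at 2.67-fold, HIST1H4K at 2.53-fold and HIST1H4A at 2.02-fold. HIST1H4D had signals of 38.6 with vehicle and 14.5 with AZA in MDS-L cells, against 39.2 and 39.7 in the resistant line. The MDS-L AZA array stood alone below the other 3.

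Probes within the same H4 gene did not always give the same ratio. The probe that stands for HIST1H4C had signals of 973, 959, 928 and 750.3 in array order, a log2 AZA ratio of -0.02 in MDS-L cells. A second HIST1H4C probe, 338 bases upstream, had signals of 10.97, 3.70, 8.31 and 9.71, a log2 ratio of -1.57. For HIST1H4L the signals were 252, 158, 131 and 221 with the probe that stands for it, and 5.16, 1.88, 4.51 and 4.2 with a probe 105 bases upstream. The log2 ratios in MDS-L cells were -0.68 and -1.45, and those in the resistant line 0.75 and -0.10. In MDS-L cells the probes of HIST1H4K stood at -1.34 and -0.64. Those of HIST1H4D lay close, at -1.41 and -1.52, as did those of HIST1H4A, at -1.01 and -0.82.

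Of the 15 H2A genes 11 were at least 2-fold lower with AZA in MDS-L cells and 2 at least 2-fold higher. The shares over all genes measured were 6.03% lower and 6.73% higher. The median log2 ratio of the class was -1.21. HIST1H2AH had signals of 95 with vehicle and 27.3 with AZA in MDS-L cells, against 75.5 and 55.0 in the resistant line, and was 3.48-fold lower with AZA in MDS-L cells. HIST1H2AJ had signals of 347, 146, 421 and 399 on these arrays. HIST1H2AL, HIST1H2AI, HIST1H2AC, HIST1H2AB and HIST1H2AG were between 2.63-fold and 3.13-fold lower, and HIST1H2AK, HIST1H2AE, HIST2H2AC and HIST2H2AB between 2.05-fold and 2.32-fold. In each of these 11 genes the MDS-L AZA array had the lowest of the 4 signals.

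Of the other H2A genes 2 were past 2-fold higher, and HIST1H2AA among them was kept through the MDS-L AZA array alone. HIST2H2AA4, which the design lists together with a near-identical neighbour, had signals of 3.94 with vehicle and 10.4 with AZA in MDS-L cells, against 5.56 and 6.68 in the resistant line. It was 2.64-fold higher with AZA in MDS-L cells. HIST1H2AA, a gene best known from testis, had a signal of 0.421 in MDS-L AZA, and was not well above background at 0.0492, 0.144 and 0.0649 on the other arrays, which makes it at least 2.22-fold higher with AZA in MDS-L cells. HIST1H2AD and HIST1H2AM stood at -0.68 and -0.86, and a second HIST1H2AM probe, 70 bases downstream, at -1.48.

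Some H2A probes are too alike to assign their signal to 1 gene. Over 38 bases the HIST1H2AE and HIST1H2AK probes are 92.1% identical. They are shown 5′ to 3′ with the 35 shared bases in capitals.
HIST1H2AE: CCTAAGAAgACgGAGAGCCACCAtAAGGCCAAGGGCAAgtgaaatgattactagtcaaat
HIST1H2AK: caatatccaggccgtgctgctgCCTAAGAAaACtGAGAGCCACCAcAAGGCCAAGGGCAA

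The positions of these probes in hg19 are chr6:26217554-26217613 on the plus strand for HIST1H2AE and chr6:27805729-27805788 on the minus strand for HIST1H2AK. By this measure (at least 90% identity over at least 30 bases with a probe of another member, or a design entry for more than 1 gene) 18 of the 85 probes were near-identical or shared, and they stand for 15 of the genes. The 51 measured probes that were neither near-identical nor distal to the short transcript had a median log2 AZA ratio of -1.23 in MDS-L cells. Of them 31 were past 2-fold lower and 2 past 2-fold higher, where 6.15% of all probes measured were lower and 6.54% higher. The 2 higher, of HIST1H1A and HIST1H2AA, were above background only in MDS-L AZA, the array on which they were high.

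H2B genes, whose products pair with H2A in the nucleosome, stood closest to their vehicle level. Of 15 H2B genes 2 were at least 2-fold lower and 1 at least 2-fold higher, where 6.03% of all genes measured were lower and 6.73% higher. The median log2 ratio was -0.17, against -0.13 for all genes measured. HIST1H2BF had signals of 12.8 with vehicle and 5.38 with AZA in MDS-L cells, against 15.3 and 9.18 in the resistant line, 2.38-fold lower with AZA in MDS-L cells. HIST2H2BE stood at 1.1, 0.469, 1.07 and 0.894, 2.35-fold lower. HIST1H2BL, by contrast, had signals of 115, 112, 121 and 121 and a log2 ratio of -0.03. The log2 ratios of HIST1H2BI, HIST1H2BM and HIST1H2BG in MDS-L cells were 0.23, 0.22 and 0.00. The gene past 2-fold higher, HIST1H2BK, is read by a distal probe chosen through its signal with AZA. It is described with the other distal probes.

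**Figure D2:**
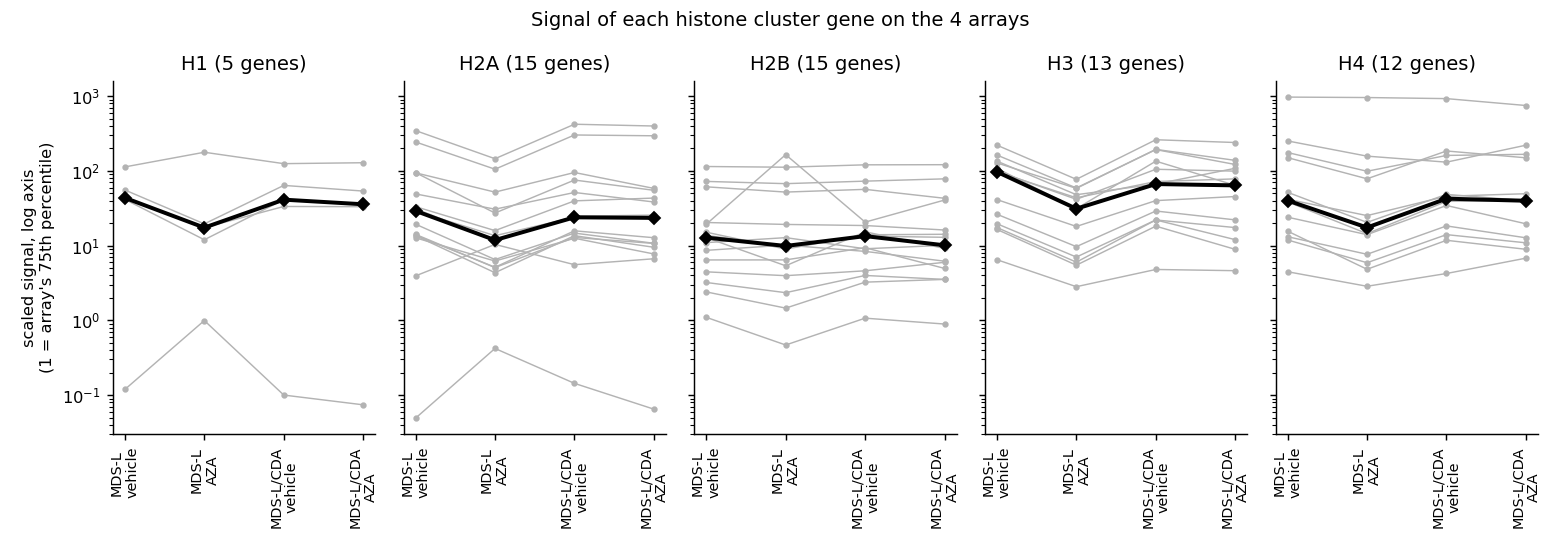
Scaled signal (log y axis, 1 is the 75th percentile of the array) of each histone cluster gene on the 4 arrays (x axis), in a panel per class. Grey lines are genes and black diamonds the median of the class on each array. The grey lines of H2A and H3 dip at MDS-L AZA, with exceptions in H2A, whereas those of H2B mostly run level.

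Many H2A and H2B genes lie head to head, and in most such pairs the H2A gene had the lower AZA ratio. There were 12 pairs of H2A and H2B genes on opposite strands whose probes face away from each other with 419 to 1041 bases between them, and both members were measured in 10. The H2A member had the lower AZA ratio in MDS-L cells in 8 of the 10 pairs, with a median difference of -0.995 in log2 units. The median stood at -1.23 for the H2A members and -0.20 for the H2B members, each read by a probe inside the short transcript. HIST1H2AH and HIST1H2BK showed the largest gap, at -1.80 and 0.37, but the design lists this HIST1H2BK probe for 4 genes. The probes of HIST1H2BC, HIST1H2BG, HIST1H2AE and HIST1H2AK in other pairs are also near-identical to a probe of another member. Their values may not belong to 1 gene alone. HIST1H2AI and HIST1H2BL stood at -1.57 and -0.03. HIST1H2AD stood above HIST1H2BF, at -0.68 and -1.25. HIST2H2AC and HIST2H2BE, at -1.10 and -1.23, lay closer than the spot SD. In the resistant line the H2A member was lower in 5 of the 10 pairs, and the median difference was -0.06.

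**Figure D3:**
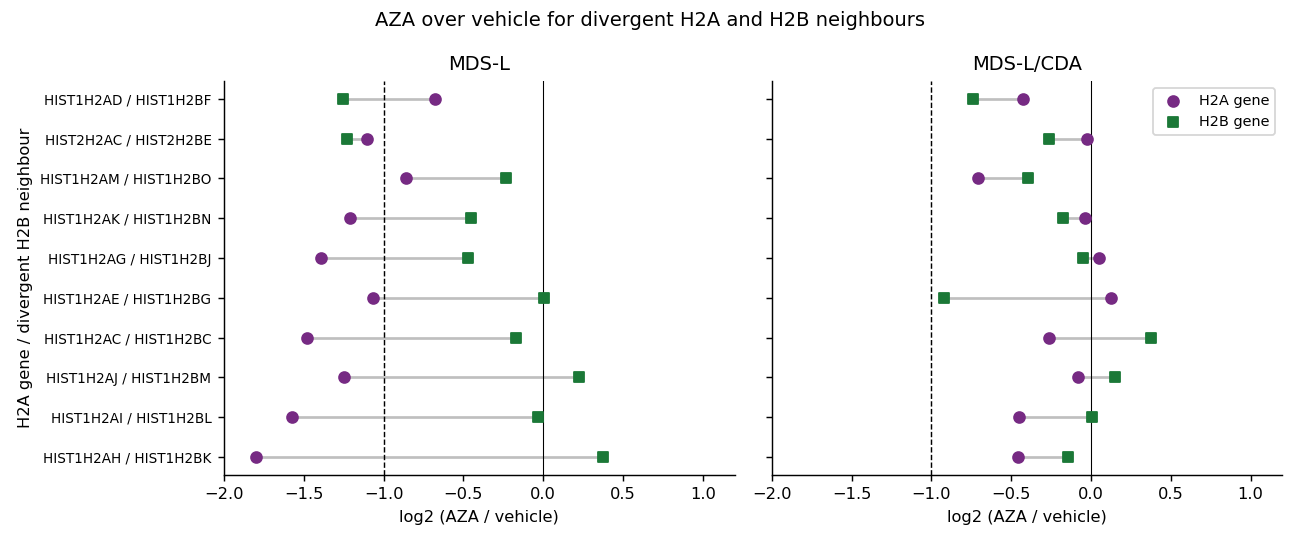
Log2 ratio of AZA over vehicle (x axis) of the H2A gene (purple circle) and the H2B gene (green square) of 10 divergent pairs (y axis), in MDS-L cells (left) and MDS-L/CDA cells (right). In MDS-L cells the circle lies left of the square in 8 of 10 pairs, and the dashed line marks 2-fold lower.

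The linker histone genes split by gene, with 3 of 5 past 2-fold lower with AZA in MDS-L cells and 1 past 2-fold higher. The shares over all genes measured were 6.03% and 6.73%. HIST1H1B had signals of 41.6 with vehicle and 12 with AZA in MDS-L cells, against 41.3 and 35.8 in the resistant line, 3.47-fold lower with AZA in MDS-L cells. HIST1H1D stood at 55.6, 19.6, 64.0 and 53.8, and HIST1H1E at 43.6, 17.4, 33.4 and 33.2, which makes them 2.84-fold and 2.505-fold lower. HIST1H1C stood at 113, 178, 125 and 129, with a log2 ratio of 0.65 in MDS-L cells that did not pass 2-fold. HIST1H1A was above background only in MDS-L AZA, at 0.995 against 0.119, 0.100 and 0.0742, and was at least 5.24-fold higher there than in MDS-L vehicle. The 4 H1 genes measured in the resistant line had log2 ratios from -0.25 to 0.04.

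Several genes carry a second probe far downstream of the short transcript, and these distal probes moved against the rest. Distal was set at over 1000 bases 3′ of the first probe of the gene, a limit chosen after the values had been seen. Of 6 such probes 4 were above background in MDS-L AZA and 3 on all 4 arrays. These 3 belong to HIST1H2AC, HIST1H2BK and HIST1H4H, and all 3 were at least 8.54-fold higher with AZA in MDS-L cells, where 6.54% of all probes measured were past 2-fold higher. Their probes inside the short transcript are given first, 5′ to 3′, since they show what the lower or level signals were read from.
HIST1H2AC: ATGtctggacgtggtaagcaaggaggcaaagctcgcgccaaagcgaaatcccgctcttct
HIST1H2BK: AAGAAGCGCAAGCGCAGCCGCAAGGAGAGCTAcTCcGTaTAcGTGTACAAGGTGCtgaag
HIST1H4H: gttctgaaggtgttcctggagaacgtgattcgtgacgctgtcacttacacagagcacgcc

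The HIST1H2AC probe (hg19, chr6:26124461-26124520, plus strand) begins with the start codon, in capitals. In the HIST1H2BK probe (chr6:27114437-27114496, minus strand) capitals mark the 51 bases shared with the HIST1H2BD probe in an overlap of 55, and the design lists this probe for 4 genes. The HIST1H4H probe (chr6:26285497-26285556, minus strand) is 91.7% identical to that of HIST2H4B over 36 bases. The distal probe of HIST1H4H holds the polyadenylation signal AATAAA, in capitals in this window, a hexamer found in 7.85% of all probes on the array.
HIST1H4H distal: ccacagatttccAATAAAaggtgaataaaa

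For HIST1H2AC, a gene of the nucleosomal core histone H2A, the distal probe at chr6:26138822-26138881 lies 14.4 kb from the first. Its signals were 1.37 with vehicle and 25.9 with AZA in MDS-L cells, against 1.52 and 4.84 in the resistant line. That is 18.8-fold higher with AZA in MDS-L cells, and 3.19-fold higher in the resistant line. The probe at the start codon stood at 14.2, 5.09, 12.9 and 10.72, 2.79-fold lower in MDS-L cells. Another HIST1H2AC probe, 58 bases upstream of it, stood at 1.92, 1.22, 2.48 and 2.44, a log2 ratio of -0.66.

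For HIST1H4H the distal probe at chr6:26281286-26281345 lies 4.21 kb from the other. It had signals of 0.691 with vehicle and 6.79 with AZA in MDS-L cells, against 0.512 and 1.27 in the resistant line, 9.83-fold higher with AZA in MDS-L cells, and 2.48-fold in the resistant line. The probe inside the short transcript stood at 15.6, 4.83, 11.8 and 8.94. In MDS-L cells the 2 probes of HIST1H4H were past 2-fold in opposite directions, whereas in the resistant line the probe inside the short transcript was not past 2-fold, at -0.40.

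The distal probe of HIST1H2BK at chr6:27106191-27106250 lies 8.25 kb from the other. It was the dimmer of the 2 with vehicle and the brighter with AZA, so its signal with AZA made it the probe that stands for the gene. Its signals were 19.3 with vehicle and 165 with AZA in MDS-L cells, against 20.7 and 40.8 in the resistant line, with log2 ratios of 3.09 and 0.98. The other probe stood at 28.5, 36.9, 36.6 and 33.1, with log2 ratios of 0.37 and -0.15. A distal probe of HIST2H2BE was above background in MDS-L AZA alone, at 0.293, and those of HIST1H2AG and HIST2H2BF on no array. Through the design, a RefSeq gene was matched to the distal probe of HIST1H2BK and none to those of HIST1H2AC and HIST1H4H. Some probes inside the short transcript, such as the second HIST1H4C probe, also had no match. Whether the distal signals come from transcripts that begin at the histone gene was not tested.

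**Figure D4:**
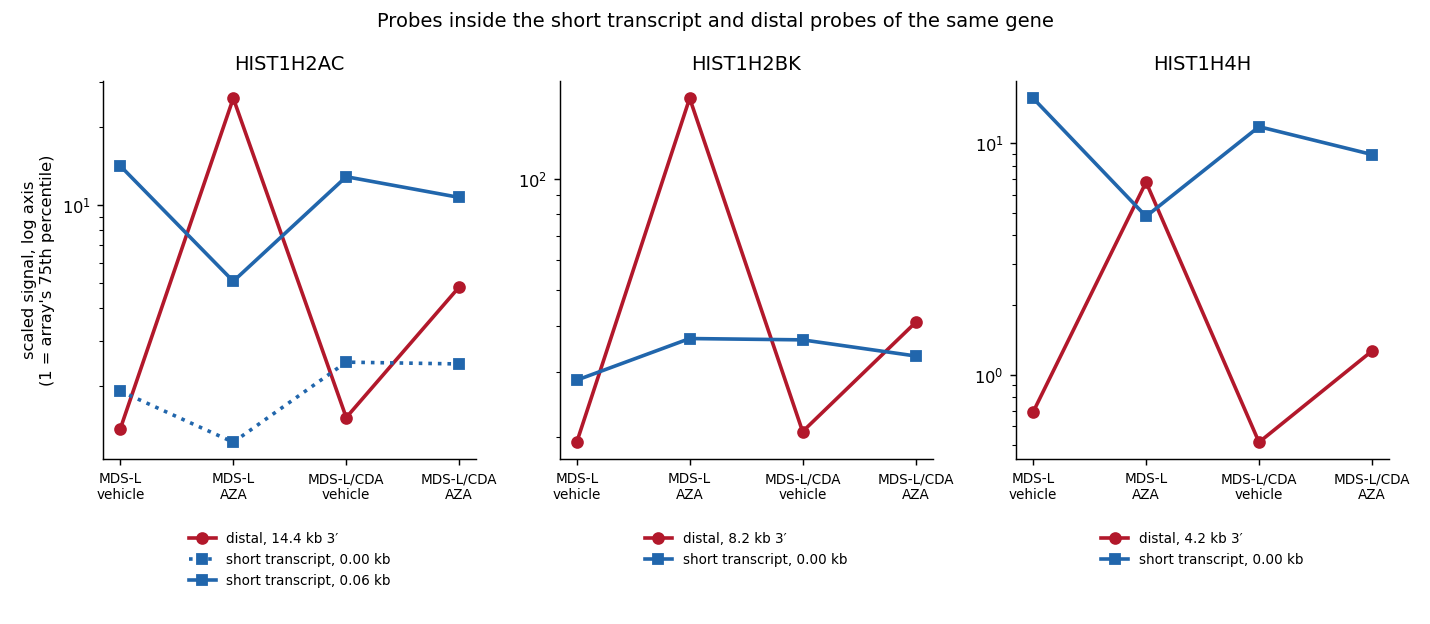
Scaled signal (log y axis, 1 is the 75th percentile of the array) of probes inside the short transcript (blue) and of distal probes (red) on the 4 arrays (x axis), for HIST1H2AC, HIST1H2BK and HIST1H4H. Distances are from the first probe of the gene. Each red line peaks at MDS-L AZA, at 25.9, 165 and 6.79, and is also higher in MDS-L/CDA AZA than in MDS-L/CDA vehicle.

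In MDS-L/CDA cells few histone cluster genes passed 2-fold with AZA. Of the 58 measured, 2 were lower (HIST1H3G and HIST1H3I) and none was higher, where 3.07% of the 15393 genes measured were lower and 2.53% higher. Their share past 2-fold was therefore near that of all genes. The median log2 ratio was -0.20, against 0.02 for all genes, and 39 of the 58 lay below 1, as did 7434 of the 15393 genes measured. The class medians were -0.11 for H1, -0.29 for H2A, -0.05 for H2B, -0.34 for H3 and -0.29 for H4. Among the lowest after the 2 past 2-fold were HIST1H2BG at -0.92, HIST1H3J at -0.88 and HIST2H4B at -0.81. Among the highest were the distal HIST1H2BK probe at 0.98, HIST1H4L at 0.75, HIST3H3 at 0.70, HIST1H4F at 0.68 and HIST1H2BC at 0.38.

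The AZA ratio of the 2 lines was compared gene by gene for the 58 members above background on all 4 arrays. The median of the log2 ratio in MDS-L minus that in MDS-L/CDA was -0.84, and it was -0.15 over all 13962 such genes. The difference was -1 or lower in 26 of the 58 members, against 6.15% of all genes. After HIST3H3 the lowest differences were -1.59 for HIST1H1B, -1.44 for HIST1H2AG and -1.43 for HIST1H4D. The highest were 2.11 for HIST1H2BK, with its distal probe, and 1.14 for HIST2H2AA4. These differences share no replicate and were not tested.

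Without AZA the lines were alike for most members. Of 58 genes, 1 was at least 2-fold lower in MDS-L/CDA than in MDS-L cells, HIST3H3 at 2.03-fold, and none was higher, where 2.64% of 16015 genes were lower and 1.97% higher. The median log2 ratio was 0.03. HIST1H4L stood next to HIST3H3 at -0.94, followed by HIST1H3A and HIST1H3C, both at -0.43. The highest were HIST2H3A at 0.60, HIST1H2BG at 0.54 and HIST2H4B at 0.52.

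With AZA more members passed 2-fold between the lines, by a number that depends on the scaling. Of 60 genes, 22 were at least 2-fold higher in MDS-L/CDA AZA than in MDS-L AZA and 2 at least 2-fold lower, where 5.43% of 16739 genes were higher and 5.23% lower. The median log2 ratio was 0.86, against 0.16 for all genes. The count higher was 2, with 5 lower, without scaling between arrays, 9 with normexp background correction and 13 with quantile normalization. By class, 9 of 13 H3, 8 of 15 H2A, 2 of 5 H1, 2 of 12 H4 and 1 of 15 H2B genes were higher. HIST1H3D at 3.11-fold, HIST1H1B at 2.98-fold and HIST1H2AK at 2.80-fold had the highest ratios. The 2 lower were HIST1H2BK, read by its distal probe, at 4.05-fold, and HIST1H1A at 3.37-fold or more. That count was set in part by the MDS-L AZA array. HIST1H1A was above background there alone, and the HIST1H2BK probe was chosen through its signal with AZA. This comparison uses the same 2 AZA arrays as the ratios within the lines.

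Both stretches of the chromosome 6 cluster held genes that were lower with AZA in MDS-L cells, each gene read by a probe inside the short transcript. Of 31 genes measured between 25.7 and 26.3 Mb (hg19) 16 were at least 2-fold lower and 2 at least 2-fold higher. The median was -1.01. The 2 higher were HIST1H1A and HIST1H2AA, which were measured only through the MDS-L AZA array, where they were high. Of 21 measured between 27.1 and 27.9 Mb 11 were lower, with a median of -1.21. Over all genes measured 6.03% were lower and 6.73% higher. The medians in the resistant line were -0.20 and -0.21.

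The promoters were read from RefSeq (GRCh38.p14), 250 bases before to 50 bases after the start of each gene. They were found for 55 of the 60 members, and HIST1H2AH, HIST1H3I, HIST1H3J, HIST1H4A and HIST1H4C had no entry. Each motif was searched on both strands. The CCAAT motif was present in 48 of 55 (87.3%), against 34.6% of all 35116 promoters. The motif TATAAA was present in 38 (69.1% against 11.5%). The octamer ATTTGCAT was present in 24 (43.6% against 1.77%). The octamer was in 12 of 15 H2B and 11 of 14 H2A promoters, in 1 of 11 H3 promoters and in no H1 or H4 promoter. CCAAT was in every H1, H2A, H2B and H3 promoter and in 3 of 10 H4 promoters.

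Over all classes together, members with and without the octamer both included genes that were lower with AZA. The median log2 AZA ratio in MDS-L cells was -0.81 for members with it, 11 of 24 of them past 2-fold lower. It was -1.19 for members without it, 18 of 31 of them past 2-fold lower, against 6.03% of all genes. The octamer was in 12 of 15 H2B and 1 of 11 H3 promoters, classes with medians of -0.17 and -1.46. The pooled values therefore cannot separate the motif from the class, and HIST1H2BK enters them by its distal probe. Past 2-fold lower were 26 of 48 members with CCAAT and 3 of 7 without it. For TATAAA these counts were 21 of 38 and 8 of 17. The 250 bases before the start are shown for HIST1H2AC, HIST1H2BK and HIST1H3G, an H2A, an H2B and an H3 gene described above, so that their motifs can be compared, with every match of the 3 motifs in capitals. In GRCh38.p14, unlike the hg19 positions of the probes, the windows are chr6:26123922-26124171 on the plus strand, chr6:27146859-27147108 on the minus strand and chr6:26271414-26271663 on the minus strand.
HIST1H2AC: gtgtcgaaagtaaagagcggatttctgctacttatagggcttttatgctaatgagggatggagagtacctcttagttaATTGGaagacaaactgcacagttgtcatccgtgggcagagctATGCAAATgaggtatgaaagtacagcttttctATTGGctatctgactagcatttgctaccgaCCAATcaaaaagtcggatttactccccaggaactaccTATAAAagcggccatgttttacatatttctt
HIST1H2BK: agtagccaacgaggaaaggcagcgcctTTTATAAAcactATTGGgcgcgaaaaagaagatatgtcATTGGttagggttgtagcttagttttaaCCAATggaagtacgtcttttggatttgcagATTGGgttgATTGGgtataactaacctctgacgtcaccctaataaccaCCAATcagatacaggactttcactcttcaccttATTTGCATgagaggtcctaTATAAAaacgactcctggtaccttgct
HIST1H3G: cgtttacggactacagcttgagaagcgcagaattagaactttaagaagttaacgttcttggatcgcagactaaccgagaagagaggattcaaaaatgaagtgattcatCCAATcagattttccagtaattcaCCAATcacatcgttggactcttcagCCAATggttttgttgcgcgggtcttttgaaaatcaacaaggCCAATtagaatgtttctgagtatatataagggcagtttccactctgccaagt

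HIST1H2AC has TATAAA 31 bases before the start and the octamer, on the minus strand, at 130. HIST1H2BK has TATAAA at 27 and the octamer at 46, and a further pair of overlapping TATAAA matches on opposite strands at 223 and 221. HIST1H3G has 4 CCAAT matches, at 142, 118, 93 and 52, and neither of the other motifs. A match is a run of letters in this window and not a measured site.

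Gene lists for histone supply, 4 in all, were set beside the members. All 18 S phase genes measured, among them the replicative helicase subunits and DNA synthesis enzymes, lay below 1 with AZA in MDS-L cells, with a median log2 ratio of -0.66. Over all genes measured there, 10114 of 17172 lay below 1, the median was -0.13, and 6.03% were past 2-fold lower and 6.73% higher. MCM3 and MCM6, subunits of that helicase, were past 2-fold, at -1.16 and -1.05. PCNA, the sliding clamp of DNA polymerase, had signals of 196 with vehicle and 123 with AZA in MDS-L cells, against 176 and 121 in the resistant line. In MDS-L/CDA cells none of the 18 passed 2-fold, where 2.53% of all genes were higher and 3.07% lower. The median of the 18 there was -0.09. The part of the S phase genes in the histone values was not tested.

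All 17 genes measured for histone chaperones and depositors, among them factors that carry new histones to DNA, also lay below 1 in MDS-L cells. The median log2 ratio was -0.45, and 3 of 17 passed 2-fold lower against the 6.03% of all genes. They were CHAF1A of the chromatin assembly factor at -1.46, the H3 and H4 chaperone NASP at -1.33 and the histone acetyltransferase HAT1 at -1.06. In MDS-L/CDA cells, where 2.53% of all genes were higher and 3.07% lower, CHAF1A was the only gene of this list past 2-fold. It was higher, at 1.21. Its signals were 104 with vehicle and 38.0 with AZA in MDS-L cells, against 42.2 and 97.6 in the resistant line. HJURP, the chaperone of the centromeric H3 variant, was lower in MDS-L/CDA than in MDS-L cells, at -1.001 without AZA and -1.38 with it.

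Of 16 genes of stem-loop processing and decay measured in MDS-L cells none passed 2-fold, with a median log2 ratio of -0.21 against -0.13 for all genes. At 6.03% lower and 6.73% higher over all genes, a list of this size differs little from the background. SLBP, which binds the stem-loop shown above, had signals of 93.9, 83.2, 122 and 152 in array order. In MDS-L/CDA cells 2 of 16 were past 2-fold lower with AZA and none higher, where 3.07% of all genes were lower and 2.53% higher. They were NPAT, the co-activator of histone transcription, and ZCCHC6, a uridylyltransferase, at log2 bounds of -1.48 and -1.50. Their signals went from 0.823 and 0.838 with vehicle to spots not well above background. The replication-independent histone genes, which are not limited to S phase, had none of 9 past 2-fold in either line, also near the share of all genes. In MDS-L cells all 9 lay below 1, as did 10114 of the 17172 genes measured. The median of the 9 there was -0.37, against -0.13 for all genes. It was 0.07 in the resistant line, where 4 of the 9 lay below 1. H2AFX, whose product is phosphorylated at DNA breaks, stood at 106.6, 79.2, 80.4 and 98.0.

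**Figure D5:**
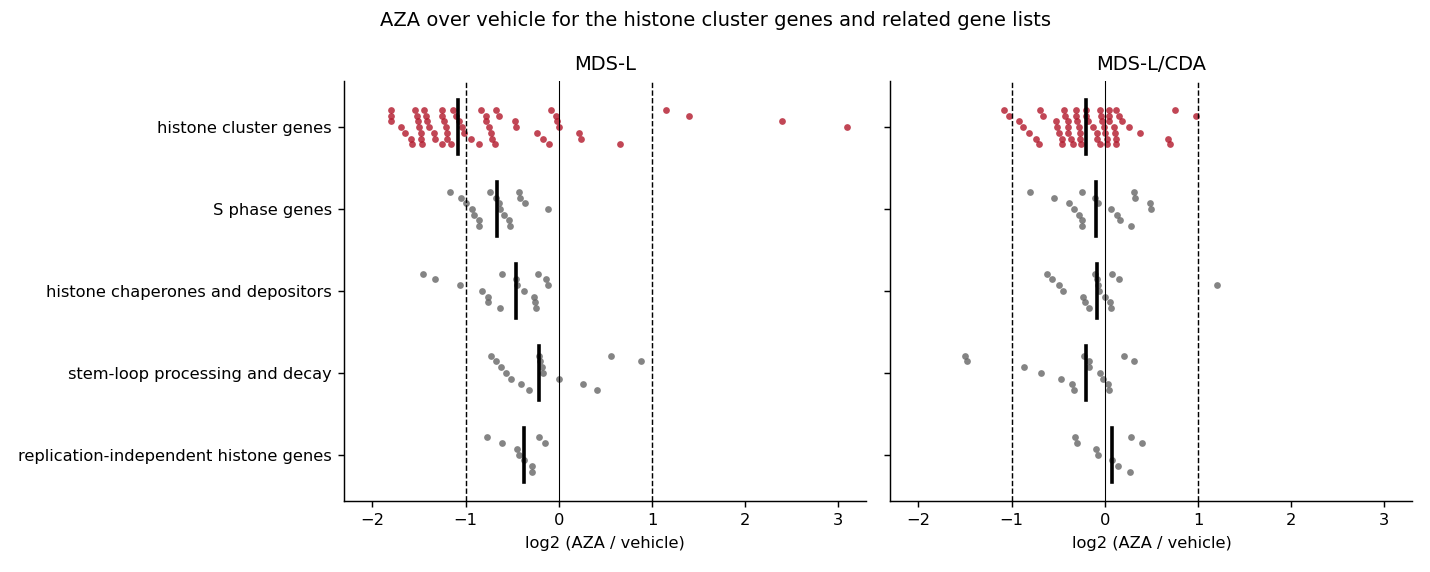
Log2 ratio of AZA over vehicle (x axis) of the histone cluster genes (red) and of 4 related gene lists (grey), in MDS-L cells (left) and MDS-L/CDA cells (right). Points are genes, black bars are medians and dashed lines mark 2-fold. The medians in MDS-L cells run from -1.08 for the histone cluster genes to -0.21 for stem-loop processing.

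Between the lines, S phase genes stood higher in MDS-L/CDA AZA than in MDS-L AZA, with 6 of 18 past 2-fold. Those 6 were MCM5, MCM6, MCM7, CDC6, CCNE1 and CCNA2. The median log2 ratio was 0.92, against 0.16 for all genes, and 5.43% of 16739 genes were higher and 5.23% lower. Counts in this comparison depend on the scaling, as given above for the histone cluster genes. MCM7 was also 2.59-fold higher in MDS-L/CDA cells without AZA. It was the only S phase gene past 2-fold there, where 1.97% of all genes were higher. ASF1B and CHAF1B, chaperones of H3 and H4, were 2.19-fold and 2.02-fold higher with AZA in MDS-L/CDA cells, beside CHAF1A at 2.57-fold.

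Markers of cell type were read on the same arrays. Of 8 myeloid progenitor genes 7 were above background on every array, with a summed signal between 191 and 215, and MPO was on none. The fibroblast genes were above background on no array. Of the 5 lymphoid genes 2 were above background on each array, and CD3D in addition in MDS-L AZA, at 4.47. With AZA in MDS-L cells the stem cell factor receptor KIT was 47.3-fold higher and CD3D at least 23.5-fold. The part of these markers in the histone values was not tested.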

How the data were processed

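Total RNA of the 4 cell cultures was labelled with Cy3 and read on Agilent arrays. The authors deposited the scanner intensity of every spot, background-subtracted by Feature Extraction and not normalized between arrays, and a table of intensity for 51664 of the probes used here, whose sorted columns lie within 0.039 of each other in log2 units. Positions are those of hg19 in the deposited files, and gene names are those of the design, all 69 of which matched a RefSeq symbol.

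Control spots and 16 probes with outlier flags were left out. Signals were taken as log2, averaged over spots and scaled to the 75th percentile of the array. A gene with several probes is given by the probe with the highest mean log2 signal over the 4 arrays. Where 1 of 2 arrays was not well above background, the ratio is a bound against the higher of its own signal and the lowest signal above background there. Where both were, no ratio is given. The members, the lists and the rule for named genes were chosen with earlier results of these data known. Genes were named when past 2-fold with AZA, among the 5 highest or lowest ratios of a line, H1 genes or genes outside HIST1H, the brightest of a class, or among the 3 highest or lowest between the lines; other members are named to complete a class, a pair or a probe comparison. The calling rule was run on simulated data with changes larger than 2-fold in genes above background. That run did not test changes near 2-fold, the scaling or the spread between cultures. Lists named the stem-loop genes, replication-independent histones, chaperones and S phase genes, with markers of myeloid, lymphoid, epithelial (2 of 4 above background on each array) and fibroblast cells. The study's rule of a ratio of 2 with a Z score of 2, other scalings, background correction, filters and probe rules were alternatives. Python 3.11.15 and, for normexp, R 4.3.3 with limma 3.58.1 were used. The number of arrays limits the precision.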

Additional observations from a re-analysis of the deposited data

Results flagged for a closer look

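The probe that stands for HIST1H4L and the chromatin assembly gene CHAF1A moved in opposite directions with AZA in the lines, each by more than 2 times the SD that spots of the same probe give a ratio. The log2 ratio of HIST1H4L was -0.68 in MDS-L and 0.75 in the resistant cells, and that of CHAF1A was -1.46 and 1.21. A second HIST1H4L probe stood at -1.45 and -0.10 and showed no such opposition. Without AZA both stood lower in MDS-L/CDA than in MDS-L cells, at -0.94 and -1.31. The spot SD covers error within an array and not the spread between cultures, and HIST1H4L passes that limit only narrowly in the resistant cells. These opposite directions were not tested, since each condition has 1 array.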

How the results depend on the processing

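No paired analysis was possible because each condition has 1 array and the labels carry no replicate numbers. In MDS-L cells the count of histone cluster genes lower with AZA was 25 after quantile normalization and in the deposited value table, 45 after scaling to the median of all probes, 26 without near-identical probes, and 28 when a Z score of 2 was also asked for. Scaling to the median of all probes moved the median of all genes there to -0.67, and that of the histone cluster genes to -1.62, with 2 genes higher. The count higher was also 2 with normexp or with only genes above background on both arrays, and 8 without a filter on dim probes.

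Of 195 values recomputed for the comparisons 156 stayed within the spread allowed and 39 moved. In the resistant line, the count lower with AZA was 4 without scaling, 1 with normexp and 9 at a ratio of 1.5 (9.6% of all genes), and the count higher was 1 with spike-in scaling (chosen after seeing the data), without the filter or without near-identical probes, 2 with each probe on its own and 4 at a ratio of 1.5 (9.32% of all genes). Between the lines without AZA, the count lower was 2 with quantile normalization, no scaling, scaling to the median of all probes, normexp, the value table, each probe on its own and a ratio of 1.5 (7.81% of all genes), and 0 with spike-in scaling. The count higher was 3 without the filter and 1 at a ratio of 1.5, and the median was -0.33 without scaling and -0.49 with scaling to the median of all probes. Between the lines with AZA, the count higher was 13 with quantile normalization and the value table, 9 with normexp, 2 without scaling and 41 at a ratio of 1.5 (20.3% of all genes). The count lower was 5 without scaling, 1 with normexp, with only genes above background on both arrays and with only probes inside the short transcript (chosen after seeing the data), 6 without the filter, and 4 with each probe on its own or a ratio of 1.5. The median was 0.36 without scaling. The median difference of the AZA ratios was -1.33 with scaling to the median of all probes. The causes were not tested.

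With the mean over all probes of a gene, distal probes included, the MDS-L ratios of HIST1H2AC and HIST1H4H turned to 0.70 and 0.80, and HIST1H2AC between the lines with AZA to -0.11. HIST1H4H stood at 3.297 in MDS-L cells without near-identical probes, since only its distal probe then remained. Dim spots limit the 9 genes not kept, for which no ratio could be given.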
